A study of Mus musculus with 2 samples.

Results

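The genes described here are Bex1, Bex2 and Bex4, 3 neighbouring members of the X-linked BEX family (brain expressed X-linked), out of 17408 genes in the table. They were followed through 7023 single cells of a mouse culture on its way to induced pluripotent stem cells (iPSCs). The members were chosen by their levels in pluripotent-like cells, which had been seen to stand above those in the other cells, so that contrast is given for them as a description, without a test. Another relative, Bex3, is listed in the table under its older symbol Ngfrap1 and serves as a comparison throughout.

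The cells came from mouse embryonic fibroblasts carrying STEMCCA, a doxycycline-inducible cassette of Pou5f1, Sox2, Klf4 and Myc, reprogrammed for 16 days in serum and LIF medium with ascorbic acid. They were not sorted, and they were profiled by droplet 3′ single-cell RNA-seq, which counts captured RNA molecules by their unique molecular identifiers (UMIs). All cells belong to 1 group, profiled as 2 libraries called replicate 1 (3109 cells, 54145377 UMIs) and replicate 2 (3914 cells, 64654306 UMIs), both treated with doxycycline, and there was no untreated library. Nothing in the labels says whether the libraries came from separate cultures, so the spread between them may be technical. The study describes 2 separate STEMCCA mouse systems for these data, and the labels do not tie either library to one of them, so a difference between the libraries cannot be told apart from one between systems.

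A level below is the mean over cells of a gene's UMIs per 10000 UMIs of the cell. Since UMIs tag 3′ ends and not fragments along the transcript, levels of different genes were compared without division by length. Clustering without the X-linked and Y-linked genes gave 20 clusters, and 0 of the members were among the genes that shaped them. In the pluripotent-like cluster (146 and 391 cells in replicates 1 and 2), 12 of 12 pluripotency markers stood at least 2-fold above the other cells, and their summed level was 61.5 and 68.5 against 0.916 and 1.03 in all other cells. The neural marker list was also high there, with a sum of 7.77 and 5.67 against 1.43 and 1.10, of which Stmn2 alone gave 6.69 and 4.84. Tubb3 (0.534 and 0.426 against 0.0293 and 0.00566), Elavl3 (0.135 and 0.0717 against 0.00163 and 0.000327) and Nefl (0.133 and 0.115 against 0.0109 and 0.00131) also stood above the other cells, while Dcx and Syt1 were at 0 in these cells in both libraries and near 0 elsewhere. Ncam1 went the other way, at 0.243 and 0.200 against 0.972 and 0.639. Elavl4 (0.00829 and 0.0153 against 0.0164 and 0.00962) and Map2 (0.0152 and 0.00498 against 0.0123 and 0.00661) had opposite directions in the libraries. Snap25 was at 0.00866 and 0.00352 against 0.000365 and 0.000784. The part of neural RNA in the Bex levels was not tested. Other clusters named from markers were fibroblast-like, myofibroblast-like, epithelial-like and macrophage-like, and the rest are given by number. Across the libraries 12 cell barcodes were shared.

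BEX genes encode short proteins that were first described in brain. Bex3, also called NADE, binds the intracellular part of the p75 neurotrophin receptor (p75NTR, encoded by Ngfr) and relays death signals from it, and Bex1 can bind the same receptor. The genes sit on the X chromosome beside the related Tceal genes, and are known to be active in neurons and in early embryonic cells.

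All 4 genes lie on the X chromosome of GRCm38 (GENCODE M21), within a stretch of 205415 bases from Bex2 to Bex3, both genes included. Bex2 spans X:136066564-136068236 on the minus strand, Bex4 X:136138996-136140443 on the plus strand, Bex1 X:136213972-136215513 on the minus strand and Bex3 X:136270253-136271978 on the plus strand. Each has 3 exons in the annotated transcript used, with the coding sequence of 128 (Bex1), 118 (Bex4), 129 (Bex2) and 124 (Bex3) codons in exon 3 only. The coding sequences pair differently from the promoters. In coding sequence Bex1 was nearest to Bex2, with 356 of 382 aligned bases identical (93.2%), against 237 of 325 (72.9%) with Bex4. In the promoter it was nearest to Bex4.

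The promoter windows from RefSeq (GRCm38.p6, 250 bases before to 50 after the annotated start) are shown because their pairing differs from that of the coding sequences. Capitals mark the stretch that aligns between the members of a pair, Bex1 with Bex4 and Bex2 with Bex3.
Bex1: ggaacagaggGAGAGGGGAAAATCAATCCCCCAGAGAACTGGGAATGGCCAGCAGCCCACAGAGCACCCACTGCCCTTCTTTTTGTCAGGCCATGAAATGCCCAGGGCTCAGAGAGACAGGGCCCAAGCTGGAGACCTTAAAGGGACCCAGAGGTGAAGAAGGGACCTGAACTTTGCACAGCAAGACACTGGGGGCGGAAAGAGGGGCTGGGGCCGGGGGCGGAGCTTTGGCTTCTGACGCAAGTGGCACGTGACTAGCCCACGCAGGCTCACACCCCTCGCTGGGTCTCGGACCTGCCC
Bex4: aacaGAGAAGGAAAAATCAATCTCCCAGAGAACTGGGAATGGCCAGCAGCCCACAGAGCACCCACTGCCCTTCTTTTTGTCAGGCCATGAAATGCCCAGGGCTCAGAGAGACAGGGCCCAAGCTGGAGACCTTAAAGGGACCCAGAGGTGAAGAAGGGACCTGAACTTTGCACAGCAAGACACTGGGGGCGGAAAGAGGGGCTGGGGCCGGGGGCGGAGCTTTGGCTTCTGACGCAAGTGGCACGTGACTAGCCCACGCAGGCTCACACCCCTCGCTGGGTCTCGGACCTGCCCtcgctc
Bex2: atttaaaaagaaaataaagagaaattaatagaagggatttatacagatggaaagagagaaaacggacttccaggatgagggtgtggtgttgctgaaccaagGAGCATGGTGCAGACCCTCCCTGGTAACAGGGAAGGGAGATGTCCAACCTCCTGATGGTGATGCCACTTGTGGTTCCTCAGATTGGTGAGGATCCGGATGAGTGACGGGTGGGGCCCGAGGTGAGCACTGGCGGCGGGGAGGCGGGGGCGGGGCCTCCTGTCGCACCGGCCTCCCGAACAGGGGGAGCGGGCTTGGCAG
Bex3: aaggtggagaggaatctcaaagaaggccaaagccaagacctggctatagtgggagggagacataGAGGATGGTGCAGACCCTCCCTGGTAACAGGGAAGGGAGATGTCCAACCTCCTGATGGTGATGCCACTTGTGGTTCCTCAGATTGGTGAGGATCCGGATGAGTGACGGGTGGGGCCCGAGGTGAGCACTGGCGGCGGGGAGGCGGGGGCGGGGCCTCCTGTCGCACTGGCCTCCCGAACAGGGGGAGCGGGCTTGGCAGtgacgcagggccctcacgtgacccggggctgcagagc
The windows lie at X:136215464-136215763 on the minus strand (Bex1), X:136138746-136139045 on the plus strand (Bex4), X:136068187-136068486 on the minus strand (Bex2) and X:136270003-136270302 on the plus strand (Bex3).

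Bex1 and Bex4 aligned over 290 bases with 287 identical (99.0%) and 0 gaps. Counted from the first base of the Bex1 window, the Bex4 window differed by G15A, G18A and C29T. Bex2 and Bex3 aligned over 199 bases with 197 identical (99.0%), and Bex3 differed by C105G and C268T, counted from the first base of the Bex2 window. Across the pairs the best local alignment held 16 bases at most. The GC box GGGCGG, searched on both strands, occurred 2 times in the Bex1 and Bex4 windows and 1 time in those of Bex2 and Bex3, and 35.9% of 32544 promoter windows of the same length held it. The E-box CACGTG, which reads the same on both strands, occurred 1 time in Bex1, Bex4 and Bex3 and 0 times in Bex2, and 7.17% of windows held it. The octamer ATGCAAAT, the YY1 core GCCATNTT and the cyclic AMP response element TGACGTCA, also searched on both strands, were found in 0 of these 4 windows. TATAAA was found in that of Bex2 only, against 13.6% of all windows. That match reads on the opposite strand (TTTATA as printed) and lies in the lower-case part, far before the annotated start.

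Sharing of reads was examined in the same transcripts, because near-identical copies can lose or exchange counts. The last 400 bases, where most 3′ reads fall, held 311 windows of 90 bases. Of these, 6.11% of Bex1 and of Bex2 occurred in each other, 6.43% of Bex4 occurred in Gm12245 or Gm4322, and 0% of Bex3 occurred in another gene. At 50 bases the shares were 18.5%, 16.8%, 17.1% and 0%, and the sources used here do not state the read length. The longest run shared by Bex1 and Bex4 was 252 bases in the whole transcripts but 11 bases in their last 400, while Bex1 and Bex2 shared a run of 108 bases there. Part of the reads of Bex1 and Bex2, and of Bex4 with Gm12245 or Gm4322, may therefore be lost or exchanged. No window of 50 or 90 bases was shared by Bex1 and Bex4 in their last 400 bases.

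In pluripotent-like cells Bex1 was the most abundant of the 3 genes and Bex2 the least. The Bex1 level was 2.95 in replicate 1 and 5.10 in replicate 2 (4.03 ± 1.52, SD, n = 2 libraries), against 0.469 and 0.406 in all other cells. For Bex4 the level was 1.64 and 1.81 (1.72 ± 0.122, SD, n = 2), against 0.377 and 0.333. Both libraries put pluripotent-like cells above the rest for both genes. Bex2 stood at 1.09 and 0.977 (1.03 ± 0.080, SD, n = 2), against 0.128 and 0.0928. The ratio of the levels was 6.29 and 12.6 for Bex1, 8.52 and 10.5 for Bex2, and 4.35 and 5.43 for Bex4. Ngfrap1 stood at 4.43 and 4.66 in these cells, above Bex1 in replicate 1 and below it in replicate 2, but its ratio was 1.91 and 2.13 because it stood at 2.32 and 2.19 elsewhere. Pluripotent-like cells held 7.81% and 16.0% of the UMIs of the libraries, but 31.5% and 69.0% of all Bex1 UMIs, 40.0% and 65.8% of Bex2 and 24.6% and 49.5% of Bex4.

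**Figure D1:**
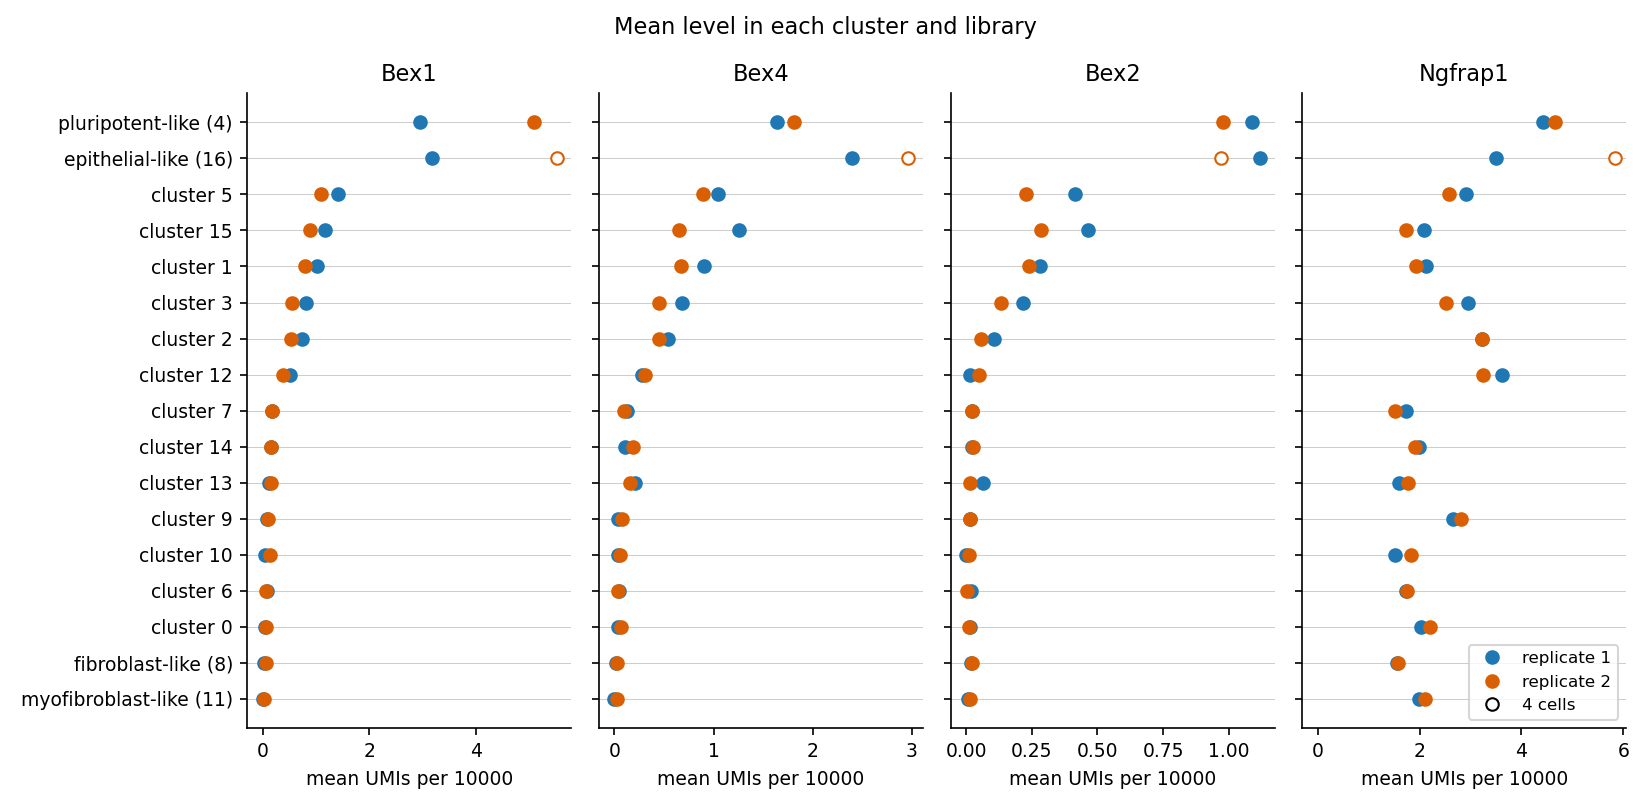
Mean UMIs per 10000 of Bex1, Bex4, Bex2 and Ngfrap1 (horizontal axes, linear, 1 scale for each gene) in clusters ordered by Bex1 (vertical axis), with 1 point for each library and an open point for the 4 epithelial-like cells of replicate 2. The 3 members stand high in pluripotent-like and epithelial-like cells, intermediate in clusters 5, 15, 1, 3 and 2, and near 0 in fibroblast-like and myofibroblast-like cells, whereas Ngfrap1 is above 1.5 in every cluster shown.

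The order of levels was set among the 16 clusters that had at least 30 cells in both libraries. Neighbours in the order were taken as separate where the lower library of the higher cluster stood above the higher library of the next. For each of the 3 genes pluripotent-like cells came first and were separate from the next cluster. The members were chosen by their level in these cells, so that place is a description and no finding. Bex1 then ran through cluster 5 (led by S-phase genes such as Dtl and Clspn) at 1.41 and 1.09, cluster 15 (Igfbpl1 and Ly6h) at 1.17 and 0.889, and cluster 1 (Tac2 and Rnase1) at 1.02 and 0.783. Cluster 3 (mitotic genes such as Cenpf) at 0.802 and 0.549 and cluster 2 (Krt19 and Msln) at 0.734 and 0.528 came next. These 5 clusters were not separate from their neighbours, but all of them stood above cluster 12, at 0.515 and 0.380. Bex4 kept the same 7 leading clusters in the same order, from 1.05 and 0.892 in cluster 5 to 0.280 and 0.305 in cluster 12. Bex2 followed with a different tail. It was 0.464 and 0.286 in cluster 15 and 0.415 and 0.227 in cluster 5, but 0.0152 and 0.0501 in cluster 12, where Bex1 and Bex4 were still well represented.

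At the low end, Bex1 was 0.0267 and 0.0578 in fibroblast-like cells and 0.0112 and 0.0265 in myofibroblast-like cells. Bex4 was 0.0156 and 0.0219 in fibroblast-like cells. Its UMI count in the 182 myofibroblast-like cells of replicate 1 was 0, which allows a level of up to 0.00953 (3 counts over the group), and the level in replicate 2 was 0.0254. Bex2 had 0 UMIs in the 130 cells of cluster 10 in replicate 1, which allows up to 0.0181. Such levels are those that free RNA in the droplets could also give, and their share of cells with a UMI is used as the background below. These bounds cover counting error only.

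The epithelial-like cluster was too small in replicate 2 (4 cells) to enter the order, but in replicate 1 its 64 cells held as much Bex RNA as pluripotent-like cells. Their levels were 3.17 for Bex1, 2.40 for Bex4 and 1.12 for Bex2, against 2.95, 1.64 and 1.09 in pluripotent-like cells of the same library. The 4 cells of replicate 2 gave 5.53, 2.96 and 0.969, again near or above the pluripotent-like cells of that library. Of the 64 cells, 96.9% had a Bex1 UMI and 96.9% a Bex4 UMI. The median cell had 2.43 Bex1 UMIs per 10000, so the level did not rest on the cell with the highest value, 32.0. The summed pluripotency markers were 4.21 in these 64 cells, with 3 of 12 at 0, and the epithelial markers 15.2, against 2.24 in the pluripotent-like cells of replicate 1. With 1 library of sufficient size, no test of these differences was possible.

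Outside the pluripotent-like cluster, 198 cells of replicate 1 and 121 of replicate 2 had at least 5 Bex1 UMIs. Of these, 19 and 7 had UMIs of at least 4 of the 12 pluripotency markers, which all 537 pluripotent-like cells had. Among the other cells with 0 Bex1 UMIs, 9 of 2183 and 22 of 2515 had them. In replicate 1 most of the 198 cells came from cluster 5 (52 cells), cluster 2 (37), the epithelial-like cluster (36) and cluster 3 (33). In replicate 2 most of the 121 cells came from clusters 5 (38), 1 (28), 3 (21) and 2 (15). Leaving out all 42 and 58 other cells with at least 4 pluripotency markers, a step chosen after seeing the data, moved Bex1 in the other cells from 0.469 to 0.433 in replicate 1 and from 0.406 to 0.398 in replicate 2.

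The share of cells with a UMI showed how evenly the genes were spread. In pluripotent-like cells, 93.8% and 97.2% had a Bex1 UMI, 91.8% and 92.8% a Bex4 UMI and 83.6% and 80.8% a Bex2 UMI. These cells were deep, with medians of 28768 and 26097 UMIs. In fibroblast-like cells, taken as background, the Bex1 share was 4.39% and 6.40% at medians of 13138 and 10862 UMIs. After thinning every cell to 3000 UMIs, pluripotent-like cells showed Bex1 in 54.1% (95% interval 45.7% to 62.4%, exact Clopper-Pearson) and 63.4% (58.4% to 68.2%), Bex4 in 32.9% and 39.1%, and Bex2 in 33.6% and 26.1%. All other cells showed Bex1 in 9.96% and 10.4%, Bex4 in 9.08% and 8.63%, and Bex2 in 2.94% and 2.16%. Here the order of Bex2 and Bex4 in replicate 1 went against their levels, so none was read from it. Thinned fibroblast-like cells had a Bex1 UMI in 0.488% and 1.60%. In the 13 macrophage-like cells, also planned as background, the share was 11.1% ± 15.7% (SD, n = 2 libraries). Their Bex1 level was 0.163 ± 0.231 (SD, n = 2) and rested on 3 Bex1 UMIs, all in replicate 2, so this background is uncertain.

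In the intermediate clusters, the Bex RNA was concentrated in part of the cells. If every cell of a cluster had carried the same level, the UMIs found would have put a Bex1 UMI in 77.02% (replicate 1) and 58.6% (replicate 2) of the cluster 2 cells. The observed shares were 42.0% and 42.5%. In cluster 12 the corresponding shares were 71.1% and 60.2%, with 33.3% and 35.8% observed. In pluripotent-like cells the gap of Bex1 was 5.74 and 2.63 percentage points. There the share at a common level was 99.6% and 99.8%, so these gaps say little about evenness and cannot be set against those above.

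Over the 34 combinations of cluster and library with at least 30 cells, the observed share was over 10 points below that of a common level in 12 for Bex1, 12 for Bex4 and 9 for Bex2, and in 0 for Ngfrap1, Wbp5 (Tceal9) and Tceal8. A gap needs a middling share to be large. Among combinations whose common-level share was between 50% and 95%, the median gap was 21.6 points for Bex1 (12 combinations), 16.4 for Bex4 (11) and 12.1 for Bex2 (4). It was 2.46 for Ngfrap1 (21 combinations), 3.17 for Wbp5 (10) and 2.17 for Tceal8 (34). The clusters may mix cell states, and the part of such a mixture in the gap was not tested.

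**Figure D2:**
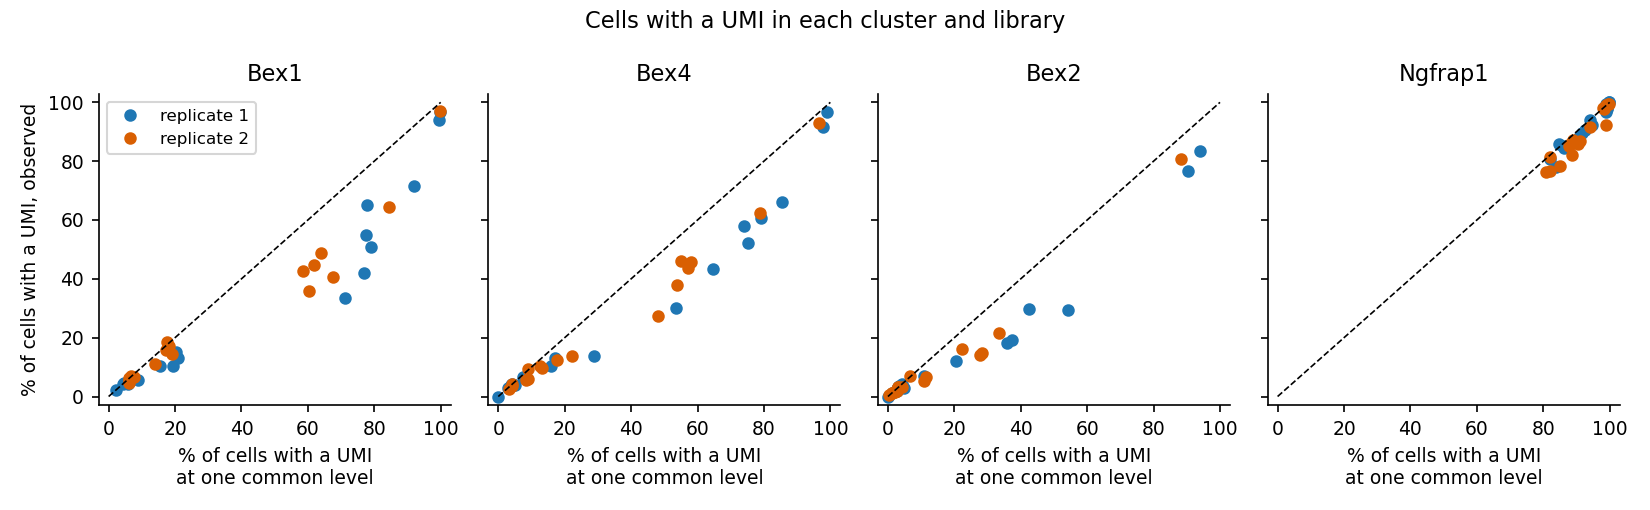
Percent of cells with a UMI as observed (vertical axis) against the percent that the same UMIs would give if all cells of the cluster had 1 common level (horizontal axis), with 1 point for each cluster and library of at least 30 cells and a dashed line of equality. Bex1, Bex4 and Bex2 lie far below the line at middling shares, with a largest gap of 37.7 points for Bex1, while Ngfrap1 lies along it, with a largest gap of 6.64 points.

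Within most clusters, cells with a UMI of 1 of the genes more often had a UMI of another. The sharing was partial. In cluster 2, Bex2 was seen in 22.9% and 10.4% of Bex1-positive cells, against 4.42% and 1.66% of Bex1-negative cells. In cluster 12, a Bex4 UMI was seen in 61.3% of the 31 Bex1-positive cells of replicate 1 against 14.5% of the 62 Bex1-negative cells, and in 55.9% of 59 against 11.3% of 106 in replicate 2. Cluster 2 gave 66.4% against 26.5% and 57.5% against 23.2%. Median depths of Bex1-positive and Bex1-negative cells of cluster 2 were 21463 and 18545 UMIs in replicate 1 and 17691.5 and 17750 in replicate 2. The Bex4 share was higher in Bex1-positive cells in 18 of the 20 combinations with at least 20 such cells. For Bex2 it was higher in Bex1-positive cells in 20 of 20, and in Bex4-positive cells in 16 of 17. The positive cells had the higher median UMIs in 19 of 20 combinations for Bex4 by Bex1, in 19 of 20 for Bex2 by Bex1 and in 16 of 17 for Bex2 by Bex4, and the part of depth in these tallies was not tested.

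At 3000 UMIs per cell, all 3 genes were seen together in 8.22% (4.32% to 13.9%) of pluripotent-like cells of replicate 1 and 8.70% (6.10% to 11.9%) of replicate 2. The product of the separate shares was 5.97% and 6.47%, inside the interval of replicate 1 and of replicate 2. None of the genes was seen in 24.0% and 19.7%. Without thinning, 74.0% and 75.7% of these cells had all 3 genes and 0.685% and 0.512% had none. In all other cells, thinned, Bex1 and Bex4 occurred together in 2.83% (2.27% to 3.50%) and 2.21% (1.75% to 2.76%), against products of 0.904% and 0.894% that lie below those intervals. The other cells hold many clusters with different levels, so an excess over the product there includes the difference between clusters.

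**Figure D3:**
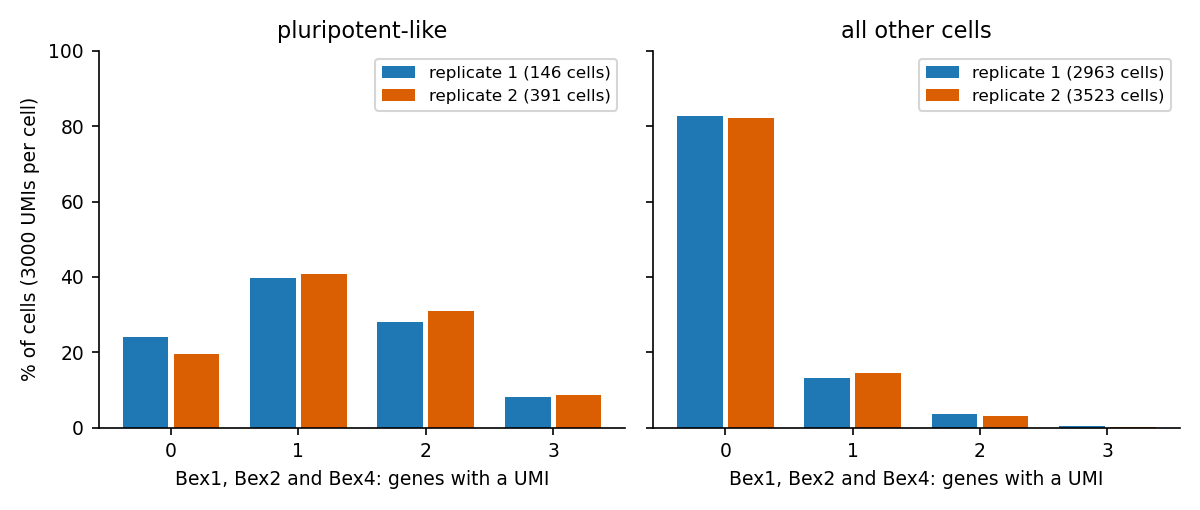
Percent of cells (vertical axis, from 0) with UMIs of 0, 1, 2 or 3 of the genes Bex1, Bex2 and Bex4 (horizontal axis) after thinning each cell to 3000 UMIs, with 1 bar for each library. In pluripotent-like cells the most common number is 1, at 39.7% and 40.7%, and in all other cells it is 0, at 82.7% and 82.2%.

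Within pluripotent-like cells the levels varied together only in part. The Pearson correlation over cells of the log levels of Bex1 and Bex4 was 0.46 in replicate 1 (146 cells) and 0.41 in replicate 2 (391 cells). Bex1 with Bex2 gave 0.19 and 0.28, and Bex2 with Bex4 0.24 and 0.34. Bex1 with Ngfrap1 gave 0.44 and 0.53. The cells of a library share its depth and normalization, and the correlations are a description. Spearman correlations of the Bex1 level with the UMIs of the cell were 0.15 and 0.073. The genes most like Bex1 over these cells, by the mean r of the libraries among 2125 genes, were Ngfrap1 (0.48), Bex4 (0.43), Wbp5 (0.40), Dnajb6 (0.29) and Dusp9 (0.28). For Bex4 they were Bex1 (0.43), Ngfrap1 (0.35), Bex2 (0.29), Wbp5 (0.27) and Pgrmc1 (0.24), and for Bex2 Ngfrap1 (0.30), Bex4 (0.29), Pgrmc1 (0.26), Rpl39 (0.25) and Rpl10 (0.25). Apart from Dnajb6 these are all X-linked. Within these cells, 199 of 209 X-linked genes were higher in cells with no Y-linked UMI (below). The part of that difference in the correlations was not tested.

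Likeness was also measured over cell states. Over 32 mean profiles (16 clusters in each library), on the log2(level + 0.1) scale, Pearson's r of Bex1 and Bex4 was 0.98. Of 7153 genes compared, Bex4 was the gene most like Bex1, and Bex1 the gene most like Bex4. Bex1 and Bex2 gave 0.93, which placed Bex2 at rank 8 in likeness to Bex1. Without the pluripotent-like profiles (30 points) the values were 0.98 and 0.89. Bex2 and Ngfrap1, the other pair with aligned promoters, gave 0.55, and 0.25 without the pluripotent-like profiles. After Bex4 the genes most like Bex1 were Fkbp3 (0.94), Spint1 (0.94), Trp53 (0.93) and Spint2 (0.93). Those most like Bex4 after Bex1 were Spint1 (0.95), Trp53 (0.93), Map4k1 (0.93) and Spint2 (0.92), and those most like Bex2 were Bex1 (0.93), Gcat (0.93), Bex4 (0.92), Mapt (0.91) and Spint2 (0.91). Spint1 and Spint2 encode Kunitz-type inhibitors of membrane serine proteases found in epithelia. Profiles of 1 library share its depth and normalization, and the differences between these correlations were not tested.

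**Figure D4:**
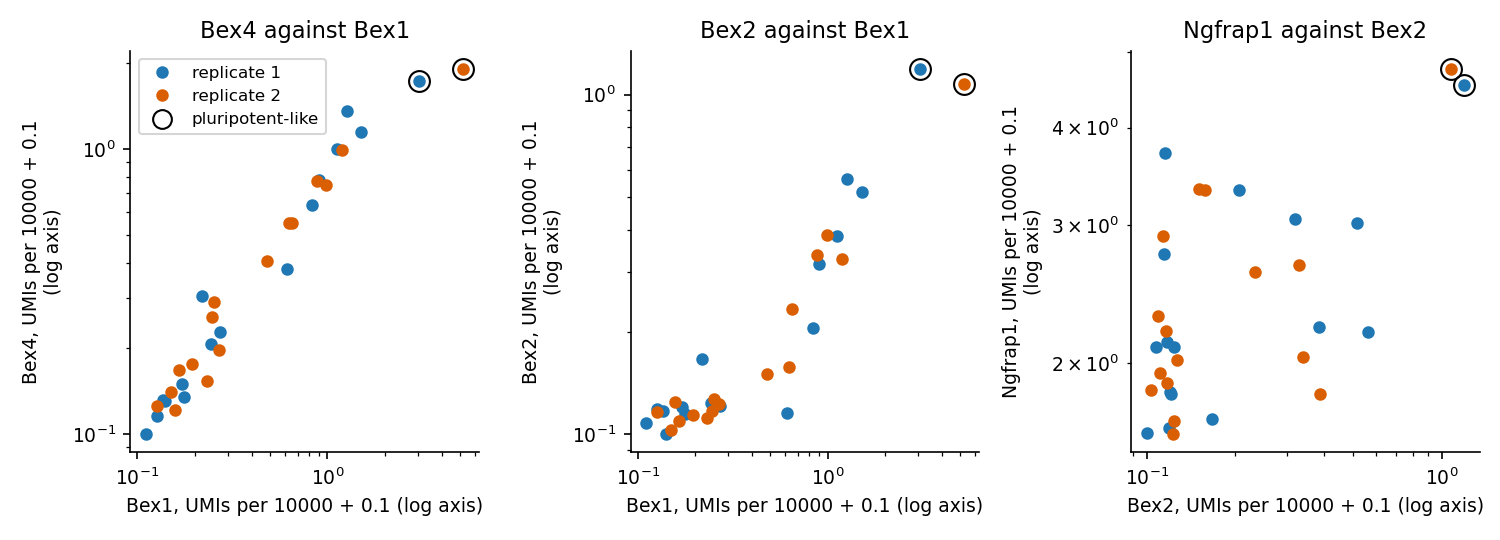
Levels of Bex4 against Bex1, Bex2 against Bex1 and Ngfrap1 against Bex2 (UMIs per 10000 plus 0.1, log axes), with 1 point for each cluster and library (32 points) and rings around the pluripotent-like cells. Bex4 and Bex1 fall close to a line (r = 0.98), Bex2 and Bex1 spread more widely (0.93) and Ngfrap1 and Bex2 show a loose cloud (0.55).

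The share of Bex1 in the summed UMIs of the 3 genes differed between the libraries in pluripotent-like cells, and no such difference was detectable in all other cells as 1 set. Bex1 made up 52.0% (50.0% to 53.9%, exact binomial interval) of 2496 UMIs in replicate 1 and 64.9% (63.8% to 65.9%) of 8237 in replicate 2. In all other cells its share was 49.2% (47.9% to 50.6%) of 5728 and 49.5% (48.0% to 50.9%) of 4842. Bex2 took 19.5% and 12.2% in pluripotent-like cells and 12.7% and 10.8% elsewhere, and Bex4 28.5% and 22.9% against 38.0% and 39.7%. The intervals cover counting error only.

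The higher Bex1 level in replicate 2 recurred in each part of the pluripotent-like cluster that both libraries held. Pluripotent-like cells were divided into subclusters without the X-linked genes, and in 8 of 8 subclusters with cells of both libraries the Bex1 level was higher in replicate 2, by 1.29 to 1.90 times. Replicate 2 was higher for Bex2 in 3 of 8, for Bex4 in 5 of 8 and for Ngfrap1 in 2 of 8. Several of these subclusters had few cells in 1 of the libraries, down to 4, and in the subcluster with the highest Bex1 (5.75 in 7 cells of replicate 1 and 7.56 in 60 cells of replicate 2) Bex2 was also high, at 1.54 and 1.58. In the 15 other clusters of the order, Bex1 was higher in replicate 2 in 7 and in replicate 1 in 8. With 1 group of 2 libraries, a difference between libraries cannot be tested, nor told apart from one between STEMCCA systems.

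The members are X-linked, and a split of the pluripotent-like cells by Y-linked RNA asked whether their levels differ between cells with and without it. Cells with 0 UMIs of Ddx3y, Eif2s3y, Kdm5d and Uty (86 and 215 cells) were set against cells with 2 or more (40 and 126 cells). This measure took no part in choosing the members. Median depths were 29662.5 and 23731 UMIs against 27656.5 and 29410.5. Xist, the RNA that coats the inactive X chromosome, was low in both groups, at 0.0784 and 0.271 against 0.0776 and 0.112.

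Bex2 was 1.26 and 1.14 in cells with no Y-linked UMI, and 0.903 and 0.730 in cells with 2 or more. The groups did not overlap, as for 11.8% of all 6358 genes tested in this direction and 165 of the 209 X-linked ones, and the log2 difference was 0.51 ± 0.15 (SE, limma, adjusted p = 0.198 over 6358 genes). Bex4 was 1.80 and 2.097 against 1.41 and 1.46, with no overlap, a difference of 0.41 ± 0.15 and limma's adjusted p = 0.341. Bex1 was 2.98 and 6.16 against 3.13 and 3.70, with opposite directions in the libraries, a difference of 0.32 ± 0.19 and adjusted p = 0.627 (limma). None of the 3 members passed the threshold of 0.05, which 0.519% of all genes tested did (0.346% higher and 0.173% lower in cells with no Y-linked UMI). The 95% intervals of the differences were 0.19 to 0.83 for Bex2, 0.089 to 0.73 for Bex4 and -0.078 to 0.73 for Bex1.

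These differences were of the size found over the X chromosome. Of 209 X-linked genes tested, 199 were higher in the cells with no Y-linked UMI, with a median log2 difference of 0.48, against -0.045 over all genes. Of the 22 genes called higher, 18 were X-linked, led by Renbp, Armcx1, Zrsr2, Rpl10 and Pin4 (0.87 to 1.07). Of the 11 called lower, the largest differences were those of Eif2s3y and Ddx3y, which define the split, and of Meg3 and Thbs1 (log2 differences of -1.31 and -1.30). Thbs1 is abundant in fibroblasts. The summed level of the 11 fibroblast markers was 2.05 and 1.36 in cells with no Y-linked UMI and 2.38 and 2.21 in those with 2 or more, and its part in the differences was not tested. Ngfrap1 was 5.10 and 5.50 against 3.33 and 3.45, a difference of 0.63 ± 0.15 with adjusted p = 0.0990 (limma). In all other cells the Bex1 level by the same split was 0.415 against 0.553 in replicate 1 and 0.451 against 0.304 in replicate 2, opposite in direction. Bex4 was likewise opposite, at 0.348 against 0.428 and 0.363 against 0.229, and Bex2 was 0.128 against 0.124 and 0.111 against 0.0673.

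**Figure D5:**
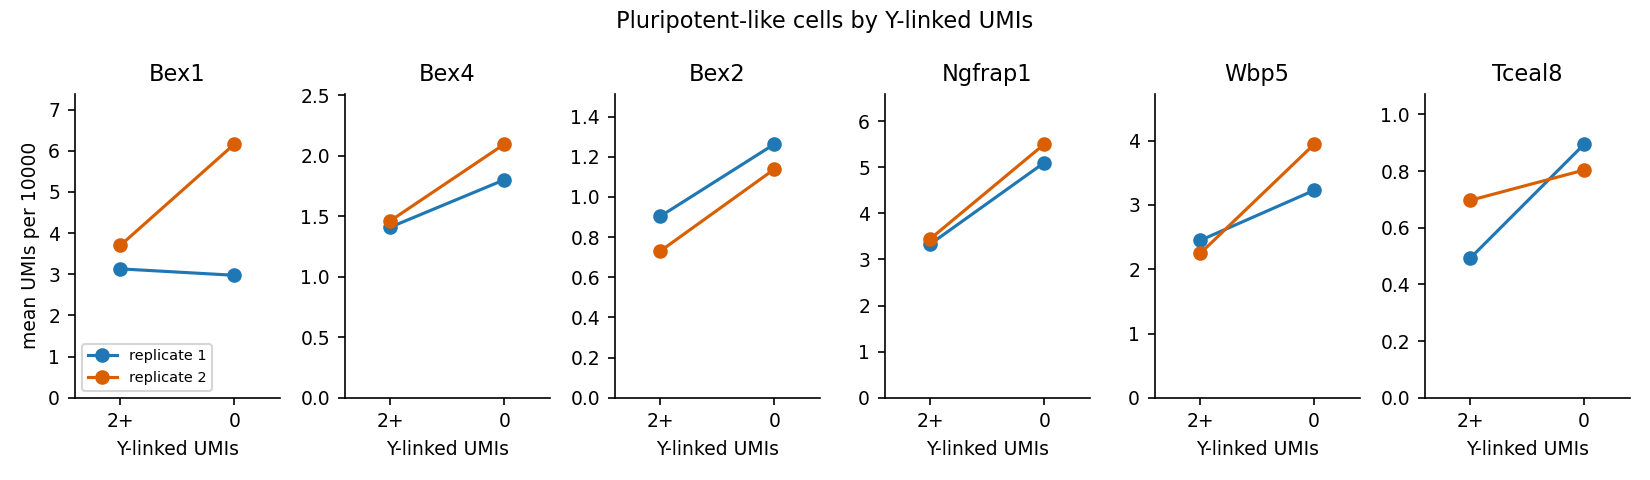
Mean UMIs per 10000 (vertical axes, from 0, 1 scale for each gene) of Bex1, Bex4, Bex2, Ngfrap1, Wbp5 and Tceal8 in pluripotent-like cells with 2 or more and with 0 Y-linked UMIs (horizontal axis), with a line for each library. All lines rise towards the cells with 0 Y-linked UMIs except that of Bex1 in replicate 1, which goes from 3.13 to 2.98.

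A second split used Dppa3, a gene of naive pluripotent and germ cells that was kept out of the clustering. Dppa3 was seen in 89 and 212 pluripotent-like cells and not in 57 and 179. Bex1 was 3.18 and 5.70 with Dppa3 against 2.59 and 4.40 without, higher in both libraries, with a log2 difference of 0.33 ± 0.10 and an adjusted p of 0.618 (limma, 6342 genes). This call depended on the fit. With a pseudocount of 1, limma's adjusted p was 0.0415, and with a spread that follows the mean level 0.00340. Bex2 was 1.08 and 1.01 against 1.10 and 0.935, and Bex4 1.57 and 1.91 against 1.74 and 1.69, both with opposite directions in the libraries and log2 differences of 0.040 and 0.010. Of all genes tested, 0.0158% passed, which was Dppa3 alone, while 512 had an unadjusted p under 0.05 in limma. Cells with Dppa3 were deeper, at medians of 29424 and 27517.5 UMIs against 27522 and 24095.

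Among the other BEX and TCEAL genes no common direction was seen, while more of the genomic neighbours were higher than lower. The classes were made from these cells, so the contrast of pluripotent-like with all other cells is a description for these genes as well, and 77.3% of 7007 genes passed limma's threshold in it, 38.0% higher and 39.3% lower. Of 9 further BEX and TCEAL genes, 7 were in the table and 3 abundant enough to be fitted. Ngfrap1 was higher (log2 difference 0.98 ± 0.093), Tceal8 was lower (-0.40 ± 0.091, at 0.774 and 0.769 against 1.08 and 1.02), and Wbp5 stood at 2.88 and 3.28 against 3.31 and 3.16 and was not called. Tceal1 and Tceal3, below the limit of 0.1, were listed at 0.00202 and 0.00704 (Tceal1) and at 0 and 0.00373 (Tceal3) in pluripotent-like cells, against 0.0728 and 0.0839 and 0.0214 and 0.0300 elsewhere. The median of the 3 fitted genes was -0.072, and that of all genes -0.012.

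The GASP and ARMCX genes, which encode related proteins of receptor sorting and of mitochondria, also divided in direction. Their list held Arxes1 and Arxes2 as well, which are neither GASP nor ARMCX genes. Of 11 listed, all in the table, 8 were fitted, 3 higher and 4 lower. Arxes1 (0.220 and 0.197 against 0.0451 and 0.0409, a log2 difference of 1.11 ± 0.091), Gprasp1 (0.42) and Armcx5 (0.44) were higher, and the last 2 have the same annotated start, so their counts may be shared. Armcx3 fell by 1.24, Armcx2 by 1.14, Armcx1 by 0.29 and Bhlhb9 by 0.24. The median over the 8 genes, which include Arxes1 (higher) and Arxes2 (not called), was -0.068. Of 25 genes starting within 1000000 bases of a member, 10 were fitted, 6 higher and 2 lower, with a median of 0.33. Over the whole X chromosome, 104 of 219 fitted genes were higher, with a median of 0.17. Beyond the neighbours already named, Morf4l2 (2.62 and 2.90 against 2.13 and 1.95), a chromatin regulator, and Tmsb15b1, a thymosin, were higher by 0.42 and 0.24.

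Of the 20 genes listed around p75NTR, 19 were in the table and 7 were fitted, all of them adaptors. The ligands and receptors were below the limit of 0.1 in pluripotent-like cells. Among ligands, Bdnf was 0.0400 and 0.0317 in these cells against 0.154 and 0.158 elsewhere, and Ntf5 was 0.0248 and 0.0266 against 0.00246 and 0.00424. The receptor gene Ngfr itself was at 0.0888 and 0.0276 in pluripotent-like cells and 0.0480 and 0.0287 elsewhere, under the limit of 0.1 for the fit, while its partner Ngfrap1 was at 4.43 and 4.66. Of the adaptors, Ngfrap1 and Ywhae, a 14-3-3 protein (0.45), were higher. Maged1 (NRAGE, -0.80), Tradd (-0.79), Irak1 (-0.55), Arhgdia (-0.53) and Rhoa (-0.30) were lower. The median of the 7 genes was -0.53.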

How the data were processed

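Unsorted day 16 reprogramming cells were measured by 3′ single-cell RNA-seq in 2 libraries. The authors ran CellRanger (version 2.1.1, from the submitters' processing notes, mm10), removed cells outside 1500 to 6000 genes or at 9% or more mitochondrial RNA, and deposited natural log values, ln(1 + UMIs / cell total × 10000). No source used here speaks of doublets, and no doublet caller was run. In each cell, 100% of nonzero values, made linear, were whole multiples (within 0.01) of the smallest, so UMIs were recovered. Cells had 4753 to 60990 UMIs, and 0 columns were left unassigned.

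Clustering (scanpy version 1.11.5, leidenalg version 0.10.2) used 2000 variable genes, 30 principal components, 15 neighbours and resolution 1, without 608 genes (those of both sex chromosomes, the 4 cassette factors and a few held-out pluripotency genes). Clusters were named from 75 markers of 9 classes, where at least 3 and 50% of a class's markers were 2-fold up and at least 1 led the cluster, a rule set after the clusters were seen. Profiles, 1 per class and library and 4 in all, were fitted as log2(mean + 0.1) in limma (version 3.58.1, under R version 4.3.3) with library as a term, where the mean over profiles reached 0.1, with Benjamini-Hochberg adjustment and a threshold of 0.05. On simulated data with 200 genes changed 2-fold it recovered 94.0% of them in the pluripotent-like contrast (7007 genes), 79.5% in the Y-linked split (6339 genes) and 84.0% in the Dppa3 split (6337 genes), where 6.15% of calls were unchanged genes. The simulated spread between profiles was an SD of 0.1 in log2 plus counting error. In the Y-linked split the SEs of the members were 0.15 (Bex2 and Bex4) and 0.19 (Bex1), so recovery may be overstated there. Thinning was random, to 3000 UMIs per cell, and left out 0 cells. Intervals are exact Clopper-Pearson.

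Genes were placed with GENCODE M21, and motifs and shared windows were searched in RefSeq promoters and GENCODE transcripts (Biopython version 1.88). The members, lists and markers were chosen with earlier results of these data known. Named genes were the members, every called gene of the lists and of the neighbours within 1000000 bases, the 5 genes most like each member, and the 5 largest called differences of each split in each direction. Ngfr, Bdnf, Ntf5, Tubb3, Elavl3, Nefl, Tceal1, Tceal3 and Wbp5 were named after their values were seen. So were Ncam1, Elavl4, Map2, Snap25 and Arxes2. Some genes that the rule takes in are not reported here. The alternatives tried were other pseudocounts and limits, summed UMIs, other clusterings, other thinning depths, other split rules and leaving out a library.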

Additional observations from a re-analysis of the deposited data

How the results depend on the processing

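The levels of the 3 members in pluripotent-like cells stayed within 1 SD of the libraries under 4 other clusterings and with summed UMIs. Those clusterings returned nearly the same cells, 146 in replicate 1 and 390 to 394 in replicate 2, so the levels had little room to move. Without 1 library the levels ranged from 2.95 to 5.10 for Bex1, from 0.977 to 1.09 for Bex2 and from 1.64 to 1.81 for Bex4. Shares of cells followed depth: at 4500 UMIs the mean share with a UMI was 66.6% for Bex1 and 51.0% for Bex4, and all 3 genes occurred in 12.8%, while without thinning the shares were 95.5%, 82.2% (Bex2) and 92.3%, with all 3 genes in 74.8%.

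The number of genes called in the contrast of pluripotent-like cells was 5415, and 1724 at a limit of 0.5, where 2197 genes were tested. The number called in the split by Y-linked UMIs depended on the fit. It was 33, but 2 with a pseudocount of 0.01, 0 with no limit on levels, 148 with summed UMIs, 89 with a spread that follows the level, 2 with no replicate block (library left out of the model) and 66 when cells with 1 or more Y-linked UMIs were used. In the Dppa3 split it was 1, but 18 with a pseudocount of 1, 55 with summed UMIs, 69 with a spread that follows the level and 22 when 2 or more Dppa3 UMIs were required. The cause of these shifts was not tested. Leaving out 1 library turned the direction of Bex1 in the Y-linked split (-0.071 to 0.72) and of Bex2 (-0.025 to 0.10) and Bex4 (-0.14 to 0.16) in the Dppa3 split. The replicate numbers pair the profiles because both classes come from the same library. Bex1 and Bex2 counts are limited by the windows they share near the 3′ end, 6.11% of each at 90 bases. At 50 bases these were 18.5% of Bex1 and 16.8% of Bex2, with the read length unknown. Bex4 counts are limited likewise, with 6.43% and 17.1% of windows shared with Gm12245 or Gm4322 at 90 and 50 bases.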
